A study of Mus musculus with 10 samples.

Results

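The genes described here are 10 genes of T cells, chosen by name from the 47069 genes of the count table: Cd3d, Cd3e, Cd3g and Trbc2 of the T cell receptor complex, the co-receptors Cd4 and Cd8a, the kinases Lck and Zap70, and the surface proteins Cd2 and Itgae. All 10 were found, and all 10 passed the filter on low counts. No measured value entered the choice of the names, but it was made with earlier results of these libraries known.

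T cells recognise peptides on other cells through a receptor whose chains carry a variable and a constant region, and Trbc2 encodes a constant region of the beta chain. The CD3 proteins stand beside that receptor and carry its signal inward, where Lck phosphorylates them and Zap70 then binds them. In the gut wall many T cells lie within the epithelium, most of them carry CD8, and the integrin chain encoded by Itgae (CD103) attaches them to E-cadherin of the epithelial cells. T cells are not part of an organoid made of crypt epithelium, so the question asked here is where these transcripts were present and how they differed between treatments.

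Poly-A RNA-seq libraries were made from C57BL/6 mouse intestinal organoids cultured for 50 days in Matrigel with Noggin, EGF and R-spondin-1. According to the methods of the study, the organoids came from mice that carry Lgr5-EGFP-CreERT2 and Ppp2r1a flox/flox, so that in every group the recombinase is made by Lgr5-positive crypt stem cells and tamoxifen allows it to delete the PP2A scaffold gene in those cells. The 10 libraries form 5 groups of 2: control (saline), DMBA (the carcinogen, labelled long), TAM short and TAM long (tamoxifen, labelled dosage-sensitive), and DMBA+TAM (both agents). What short and long stand for is not stated, and nothing in the labels says whether the 2 libraries of a group came from separate mice or cultures, so the p-values measure only the spread between libraries. The library names do not match these treatments: control is named NS, DMBA NL, TAM short DSS_S, TAM long DSS_L and DMBA+TAM Lgr5. The labels explain neither DSS nor the letters S and L, and no name mentions DMBA or tamoxifen. The groups follow the treatment descriptions, so every comparison below rests on those descriptions.

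Library totals were 8828247 to 10923673 counts in 8 libraries and only 1592366 and 1915270 in DMBA+TAM. The 2 libraries of a group differed most in DMBA and TAM long, with a chi-square per gene of 73.4 and 25.4 over genes with 20 or more counts in the pair, against 5.99 to 7.78 in the other groups, a measure that grows with depth. Levels are given below as normalized CPM, which are counts divided by the library total after scaling by the trimmed mean of M-values (TMM), and 3 counts, taken as the floor of detection, equal 1.58 and 1.32 normalized CPM in the DMBA+TAM libraries. Ppp2r1a, the floxed gene, was at 123 and 129 normalized CPM in control and at 129 to 169 in the other 8 libraries, and a count over the whole gene in all cells of a culture does not show a deletion in a few of them. The labelled tissue was checked against marker genes. The 7 epithelial genes, Epcam and Krt8 among them, summed to between 10100 and 19020 normalized CPM in 8 libraries but to 22.7 and 11.45 in DMBA+TAM, where 6 fibroblast genes summed to 30610 and 31520 and 10 macrophage genes to 7665 and 7235. The label of an epithelial organoid therefore goes against the DMBA+TAM libraries, and in the other 8 the T cell genes and the white blood cell genes were detected beside the epithelial ones. In RNA from a whole culture or tissue, fewer T cells and less T cell RNA per cell cannot be told apart.

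The genes stand on GRCm38 as follows. Cd3g (chr9:44969572-44980431, minus strand) and Cd3d (chr9:44981793-44987052, plus strand) are neighbours that point away from each other, and Cd3e (chr9:44998743-45009590, minus strand) lies beside them. Cd4 (chr6:124864692-124888221, minus strand), Cd8a (chr6:71373427-71379173, plus strand) and Trbc2 (chr6:41546730-41548352, plus strand) share chromosome 6. Cd2 is at chr3:101275899-101287939 (minus strand), Lck at chr4:129548344-129573641 (minus strand), Zap70 at chr1:36761798-36782818 (plus strand) and Itgae at chr11:73090583-73147446 (plus strand). Trbc2 has a near-identical copy, Trbc1, 6849 bases away, so reads may have been split between them and its level is uncertain. Itgae overlaps Haspin and Zap70 overlaps the pseudogene Gm18828 on the opposite strand, and Cd3e overlaps Gm48719 and Gm48720. The sources used here do not state that reads were counted by strand, so the reads of such pairs cannot be told apart.

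The bases before the start sites are shown for Cd3d, Cd3g, Cd3e and Cd8a, which were chosen by the number of listed starts and not by their levels. RefSeq promoter sequences (GRCm38.p6) were found for 6 of the 10 genes, and the 4 that have a single start there are printed as the 250 bases before the start, 5′ to 3′ on the strand of the gene, with matches to the ETS letters (AGGAAG or CTTCCT) or the RUNX letters (TGTGGT or ACCACA) in capitals. Cd3d is at chr9:44981536-44981785 (plus strand), Cd3g at chr9:44980432-44980681 (minus strand), Cd3e at chr9:45009612-45009861 (minus strand) and Cd8a at chr6:71373177-71373426 (plus strand).
Cd3d: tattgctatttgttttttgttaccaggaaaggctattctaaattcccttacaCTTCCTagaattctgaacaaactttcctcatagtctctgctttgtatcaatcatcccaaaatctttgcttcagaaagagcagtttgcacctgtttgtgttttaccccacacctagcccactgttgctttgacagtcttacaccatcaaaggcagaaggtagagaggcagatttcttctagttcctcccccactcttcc
Cd3g: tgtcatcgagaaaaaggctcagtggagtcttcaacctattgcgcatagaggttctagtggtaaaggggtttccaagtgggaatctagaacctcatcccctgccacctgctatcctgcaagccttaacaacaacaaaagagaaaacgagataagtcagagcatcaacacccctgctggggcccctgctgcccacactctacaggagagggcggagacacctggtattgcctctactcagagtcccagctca
Cd3e: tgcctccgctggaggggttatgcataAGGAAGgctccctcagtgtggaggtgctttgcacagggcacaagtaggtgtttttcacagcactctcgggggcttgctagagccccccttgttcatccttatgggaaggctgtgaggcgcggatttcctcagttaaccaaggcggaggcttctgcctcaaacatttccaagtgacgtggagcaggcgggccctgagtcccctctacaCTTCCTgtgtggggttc
Cd8a: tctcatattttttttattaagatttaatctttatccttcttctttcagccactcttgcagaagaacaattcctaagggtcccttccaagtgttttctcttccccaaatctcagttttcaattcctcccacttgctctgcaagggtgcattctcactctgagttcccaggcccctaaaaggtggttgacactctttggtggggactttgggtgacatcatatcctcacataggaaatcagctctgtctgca

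ETS letters were found in 2 of the 4 windows, once in Cd3d and at 2 places in Cd3e, against 29.5% of 32851 promoter windows of the same length. The RUNX letters were found in 0 of 4, against 14.0% of all windows. GATA letters (AGATAA or TTATCT) were present in Cd3g alone, against 9.99%, and an E-box (CANNTG) was present in all 4, against 66.2%. The motifs were searched on both strands, a match is only a match of letters, and these promoters were not measured in this experiment.

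The 10 genes gave one main picture, which the plot of their levels by library shows. All 10 had their highest mean normalized CPM in TAM short, though for Cd2 the libraries of TAM short and DMBA overlapped and the mean FPKM was higher in DMBA. Of these, 7 were lower in DMBA and TAM long than in control in every library, and 8 were lowest in DMBA+TAM, where Cd3d, Cd3e, Cd3g and Cd2 had no count at all. Cd4 was the exception, with a level in DMBA+TAM above every control, DMBA and TAM long library, and Cd2 was at its lowest, apart from DMBA+TAM, in control. The shares of all genes that follow these orders of libraries were not computed, so these counts only describe the 10 genes.

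**Figure D1:**
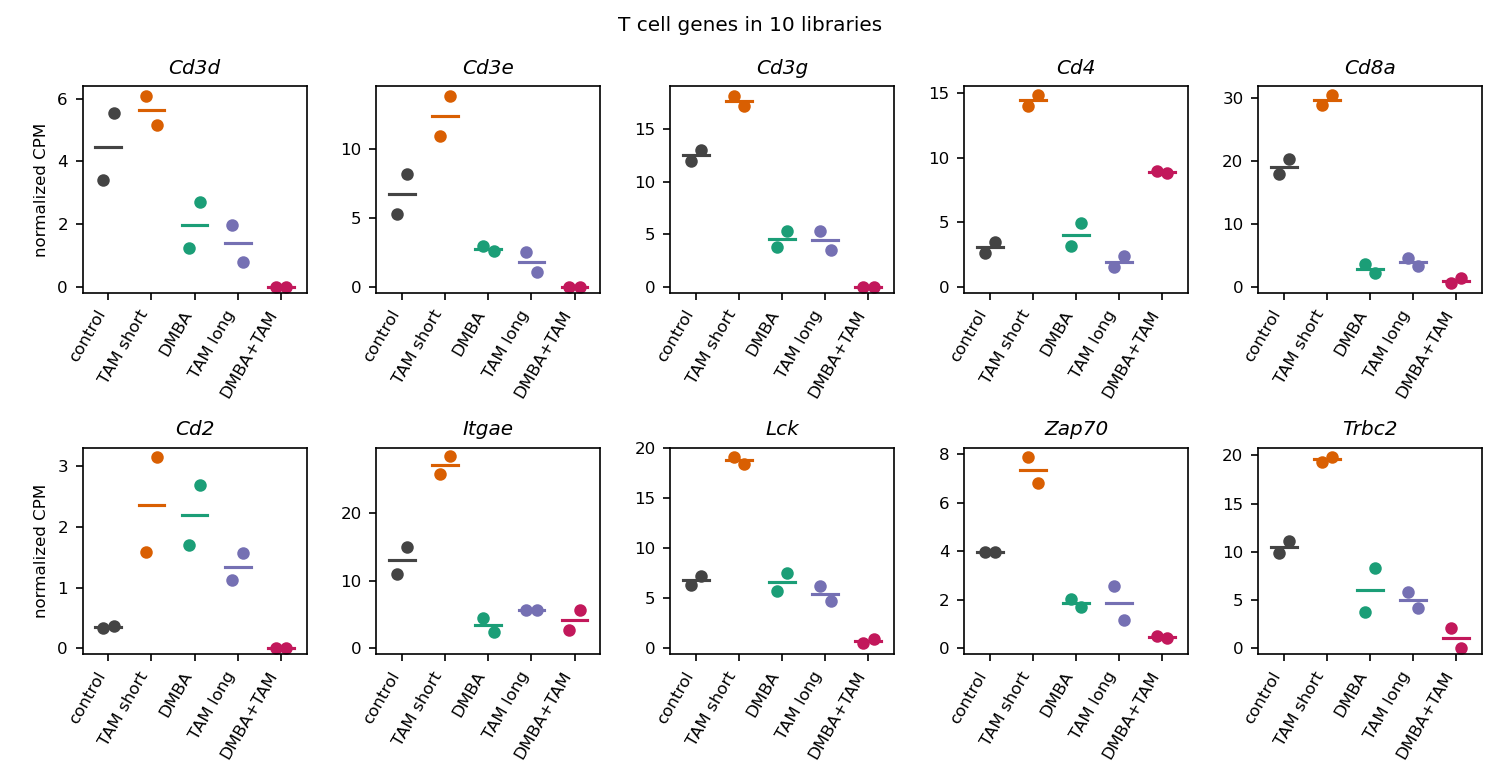
Normalized CPM of the 10 T cell genes (y axis, linear, a scale for each gene) in the 10 libraries by group (x axis), with a point for each library and a line for the mean of 2. Both TAM short libraries lie above every other library for Cd3e, Cd3g, Cd4, Cd8a, Itgae, Lck, Zap70 and Trbc2, and the DMBA+TAM points lie at or near 0 for all genes but Cd4 and Itgae.

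Cd3g, the gamma chain of CD3, was at 11.99 and 13.01 normalized CPM in control and at 18.19 and 17.16 in TAM short. It was at 3.75 and 5.28 in DMBA, at 5.35 and 3.54 in TAM long, and at 0 in both DMBA+TAM libraries. Neither DMBA nor TAM long reached control in any library, and these groups overlapped each other. Cd3g was lower in DMBA than in control by a log2 fold change of -1.48 ± 0.27 (SE, edgeR adjusted p = 0.00198) and in TAM long by -1.48 ± 0.26 (edgeR adjusted p = 0.00193), in 2 of 2 libraries each time. The rise in TAM short of 0.50 ± 0.24 on the log2 scale did not pass the test (edgeR adjusted p = 0.221), although both libraries lay above both controls.

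Cd3e, the epsilon chain, was at 5.31 and 8.19 normalized CPM in control, at 10.96 and 13.88 in TAM short, at 2.50 and 1.08 in TAM long, at 2.95 and 2.58 in DMBA, and at 0 in DMBA+TAM. The groups followed the order of Cd3g, with TAM long below DMBA in both libraries, a difference that did not pass the test (log2 fold change -0.61 ± 0.43, edgeR adjusted p = 0.487). Its fall from control passed in DMBA (-1.28 ± 0.40, edgeR adjusted p = 0.0268) and in TAM long (-1.88 ± 0.41, edgeR adjusted p = 0.00556). The call in DMBA was lost without control replicate 2 (-0.95, adjusted p = 0.183), without either DMBA library (-1.40 and -1.20, adjusted p = 0.0582 and 0.0748), and under scaling by library size only (-0.96, adjusted p = 0.0805). Without control replicate 2 the call in TAM long was lost too (-1.55, adjusted p = 0.0531).

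Cd3d, the delta chain, had the lowest counts of the 3, from 8 to 54 in the 8 deeper libraries. Its levels were 3.39 and 5.54 normalized CPM in control, 6.10 and 5.17 in TAM short, 1.98 and 0.79 in TAM long, 1.25 and 2.70 in DMBA, and 0 in DMBA+TAM. Control and TAM short overlapped, as did DMBA and TAM long, while every DMBA and TAM long library was below every control library. The difference from control passed in TAM long (-1.66 ± 0.53, edgeR adjusted p = 0.0317) and missed in DMBA (-1.19 ± 0.52, edgeR adjusted p = 0.0892). The TAM long call was lost without control replicate 1 (adjusted p = 0.0538), without control replicate 2 (adjusted p = 0.198), without TAM long replicate 2 (adjusted p = 0.182) or when counts were scaled by library size alone (-1.33, adjusted p = 0.061). The DMBA difference passed without DMBA replicate 2 (-1.83, adjusted p = 0.04) and with no filter on low counts (-1.21, adjusted p = 0.0205).

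In DMBA+TAM the 3 CD3 genes together had 0 counts. Each library then allows up to 3 counts of each gene, and against that floor the fall of Cd3g was at least 8.6-fold from control, at least 3.11-fold from DMBA, at least 3.06-fold from TAM long and at least 12.2-fold from TAM short. For Cd3e these bounds were 4.65, 1.9, 1.23 and 8.55 in the same order. For Cd3d they were 3.07 against control, 1.36 against DMBA and 3.88 against TAM short, and against TAM long no fold could be given at this depth. The CD3 genes were called lower in DMBA+TAM than in all 4 groups (edgeR adjusted p from 1.34e-05 to 0.039), but fitted fold changes against counts of 0 depend on the prior count and are not given for them. The Cd3d call against DMBA was lost without DMBA replicate 2 or either DMBA+TAM library (adjusted p = 0.0525 to 0.0995) and that against TAM long without TAM long replicate 1 or either DMBA+TAM library (adjusted p = 0.0914 to 0.147). The Cd3e call against TAM long was lost without either DMBA+TAM library (adjusted p = 0.0545 and 0.0733).

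Trbc2, the beta chain constant region, was at 9.84 and 11.08 normalized CPM in control, 19.32 and 19.81 in TAM short, 5.87 and 4.23 in TAM long, 3.75 and 8.31 in DMBA, and 2.11 and 0 in DMBA+TAM. All TAM short libraries were above all others, and the DMBA libraries differed from each other more than those of any other group. In the fit of all 10 libraries the differences from control in DMBA, TAM short and TAM long did not pass (edgeR adjusted p = 0.136, 0.165 and 0.0665). With no filter on low counts these differences passed (adjusted p = 0.00998, 0.00619 and 0.000606), as did those of TAM short and TAM long with only the groups compared (adjusted p = 0.00104 and 0.0097) and that of TAM long under DESeq2 (adjusted p = 0.0374). Without DMBA replicate 2, whose level was 8.31, the difference between DMBA and control was -1.48 on the log2 scale and passed (adjusted p = 0.0156). From 179 counts in control and 4 in DMBA+TAM, Trbc2 was 10.9-fold higher in control, with a 95% exact interval for counting error alone of 4.17 to 40.3 (edgeR adjusted p = 0.0029). All 4 of those counts were in DMBA+TAM replicate 1. With a library left out, the log2 fold change of DMBA+TAM against control ran from -9.52 to -2.33, so the size of the difference is uncertain. The copy Trbc1 had 88 and 80 counts in TAM short, 30 and 27 in control, 31 and 36 in DMBA, 56 and 31 in TAM long, and 3 and 3 in the shallower DMBA+TAM libraries, so that TAM short was again highest.

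Cd8a is the chain found in both forms of CD8. Among the 5 genes with a count in every library, it gave the largest estimated fold difference between TAM short and DMBA+TAM. Its levels were 17.98 and 20.23 normalized CPM in control, 28.81 and 30.41 in TAM short, 4.57 and 3.34 in TAM long, 3.57 and 2.13 in DMBA, and 0.53 and 1.32 in DMBA+TAM. Only DMBA and TAM long overlapped. Cd8a was lower than in control by -2.72 ± 0.27 in DMBA (log2 fold change, SE, edgeR adjusted p = 3.66e-05) and by -2.26 ± 0.25 in TAM long (edgeR adjusted p = 8.94e-05), and both calls held under every alternative run. The difference of 0.63 ± 0.23 between TAM short and control missed the threshold (edgeR adjusted p = 0.0956). With 4 counts in all in DMBA+TAM, Cd8a was 19.9-fold higher in control (95% exact interval 7.68 to 73.3) and 30.8-fold higher in TAM short (11.9 to 113). For Lck the fold in TAM short was 26.1 (8.84 to 127), so the intervals overlap and the order of Cd8a and Lck is not settled.

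Cd4 behaved differently. It was at 2.60 and 3.49 normalized CPM in control, 14.01 and 14.89 in TAM short, 1.55 and 2.36 in TAM long, 3.13 and 4.94 in DMBA, and 8.97 and 8.81 in DMBA+TAM, where its counts were 17 and 20. TAM short stood above DMBA+TAM, DMBA+TAM above the rest, and control overlapped DMBA. The rise in TAM short over control was 2.24 ± 0.31 on the log2 scale (edgeR adjusted p = 0.00129), a call that held under every alternative run. In DMBA+TAM it was higher than in control by 1.54 ± 0.35 (edgeR adjusted p = 0.00342), than in DMBA by 1.15 ± 0.34 (edgeR adjusted p = 0.0166) and than in TAM long by 2.18 ± 0.36 (edgeR adjusted p = 0.000599), in 2 of 2 libraries each. The call against DMBA was lost without DMBA replicate 1 (0.84, adjusted p = 0.0779), without either DMBA+TAM library (1.13 and 1.16, adjusted p = 0.0631 and 0.067) and with only the groups compared (adjusted p = 0.0527). Against TAM short the difference of -0.70 ± 0.32 did not pass (edgeR adjusted p = 0.0797), although it did with only the groups compared (-0.64, adjusted p = 0.0474).

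Cd4 is also made by some dendritic cells and gut macrophages, and Itgae by one class of gut dendritic cell. In DMBA+TAM against control, 10 of 10 macrophage genes were higher, among them Lyz2, C1qa, Mrc1 and C1qc, and their sum went from 227.3 and 284 normalized CPM to 7665 and 7235. Of 7 dendritic cell genes 5 were higher, with sums of 7.46 and 10.12 in control and 46.45 and 53.31 in DMBA+TAM. None of these lists had a gene that stood at 0 in both DMBA+TAM libraries, and their part in the Cd4 and Itgae counts there was not tested.

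The plot of Cd8a relative to Cd4 sets the co-receptors side by side within each library. On FPKM, which divides by gene length, the ratio of Cd8a to Cd4 was 3.38 and 2.83 in control, 1.01 and 0.999 in TAM short, 1.44 and 0.693 in TAM long, 0.559 and 0.211 in DMBA, and 0.0288 and 0.0734 in DMBA+TAM. Control stood above all other libraries, DMBA+TAM below all, and TAM long overlapped TAM short. The size of the ratio depends on the gene lengths used, and its order among libraries does not. Cd8b1, which pairs with Cd8a in the classical CD8 of T cells outside the epithelium, had only 5 to 10 counts in each of the 8 deeper libraries and 0 in DMBA+TAM, and did not pass the filter. The FPKM of Cd8a was 17.6 and 10.3 times that of Cd8b1 in control and 17.6 and 14.8 times in TAM short, against 2.21 and 1.31 times in DMBA and 3.25 and 2.68 times in TAM long.

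**Figure D2:**
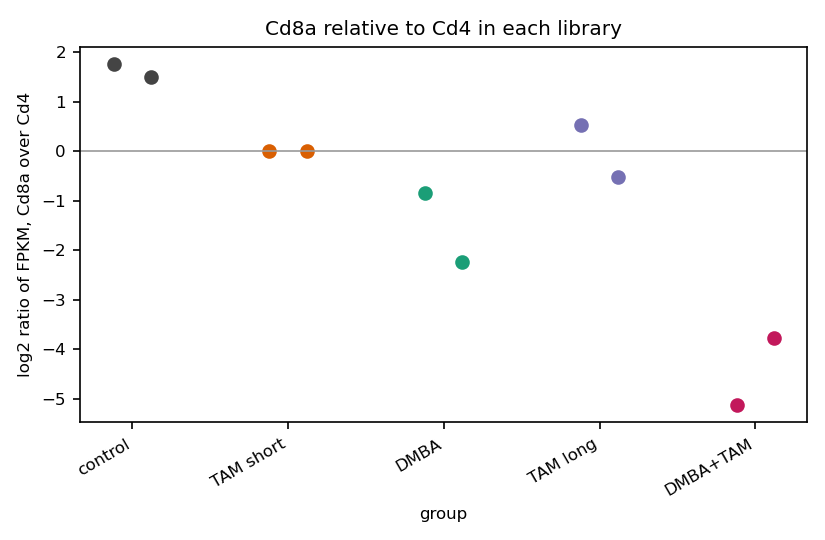
The log2 ratio of the FPKM of Cd8a to that of Cd4 (y axis) in each of the 10 libraries by group (x axis), with a line at equal FPKM. The control libraries lie at 1.76 and 1.5, the TAM short libraries at 0.01 and 0.00, and the DMBA+TAM libraries, with 1 and 3 counts of Cd8a, at -5.12 and -3.77.

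Lck, the kinase that starts receptor signalling, was at 6.33 and 7.23 normalized CPM in control, 19.09 and 18.42 in TAM short, 6.21 and 4.72 in TAM long, 5.72 and 7.53 in DMBA, and 0.53 and 0.88 in DMBA+TAM. Unlike Cd3g and Cd8a, it overlapped control in DMBA (log2 fold change -0.04 ± 0.23, edgeR adjusted p = 0.906). TAM short was higher than control by 1.47 ± 0.23 (edgeR adjusted p = 0.00262), a call kept under every alternative. With 3 counts in all in DMBA+TAM, Lck was 9.39-fold higher in control (95% exact interval 3.13 to 46.2).

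Zap70, the kinase recruited next, was at 3.96 and 3.97 normalized CPM in control, 7.91 and 6.81 in TAM short, 2.59 and 1.18 in TAM long, 2.05 and 1.68 in DMBA, and 0.53 and 0.44 in DMBA+TAM. TAM short was highest and control next, both clear of the others, while DMBA and TAM long overlapped. Its calls as lower in DMBA (-1.07 ± 0.38, edgeR adjusted p = 0.0422) and TAM long (-1.05 ± 0.38, edgeR adjusted p = 0.0444) were both close to the threshold. DESeq2 (adjusted p = 0.0983 and 0.105) and scaling by library size only (-0.76 and -0.73, adjusted p = 0.145 and 0.151) lost both. Leaving out any of the libraries compared lost the DMBA call (adjusted p = 0.0752 to 0.134), and the TAM long call was lost without either control library (adjusted p = 0.138 and 0.142) or without TAM long replicate 2 (adjusted p = 0.262).

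Itgae, which holds T cells in the epithelium, was at 10.97 and 15.05 normalized CPM in control, 25.76 and 28.39 in TAM short, 5.69 and 5.70 in TAM long, 4.47 and 2.36 in DMBA, and 2.64 and 5.73 in DMBA+TAM. TAM short was above control by 1.06 ± 0.28 on the log2 scale (edgeR adjusted p = 0.0334), but this call was lost when any of the 4 libraries was left out (0.85 to 1.30, adjusted p = 0.103 to 0.246). DMBA was below control by -1.90 ± 0.32 (edgeR adjusted p = 0.000921) and TAM long by -1.19 ± 0.30 (edgeR adjusted p = 0.00928). The TAM long call was lost without control replicate 2 (-0.95, adjusted p = 0.089), without either TAM long library (-1.19 and -1.20, adjusted p = 0.0546 and 0.0551), and under scaling by library size only (-0.87, adjusted p = 0.0509). DMBA+TAM was lower than control by -1.60 ± 0.40 (edgeR adjusted p = 0.00582) and overlapped both DMBA and TAM long. Scaling by library size only left that difference at -1.10 and just outside the threshold (adjusted p = 0.0511).

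Cd2, which binds CD48 on other cells in mice and is found on T cells and NK cells and, in mice, on B cells, had the fewest counts of the 10 genes. It was at 0.34 and 0.36 normalized CPM in control, from 3 counts in each library, and at 1.58 and 3.15 in TAM short, 1.12 and 1.57 in TAM long, 1.70 and 2.70 in DMBA, and 0 in DMBA+TAM. All libraries of those 3 groups were above control, and the 3 groups overlapped or lay side by side. The differences from control were 2.58 ± 0.62 in DMBA (log2 fold change, edgeR adjusted p = 0.00851), 2.70 ± 0.62 in TAM short (edgeR adjusted p = 0.0224) and 1.89 ± 0.64 in TAM long (edgeR adjusted p = 0.0397). All 3 were lost without either control library (adjusted p = 0.0593 to 0.161), and the TAM short call also without TAM short replicate 2 (adjusted p = 0.179). The TAM long call was lost without either TAM long library (adjusted p = 0.0751 and 0.169) and under DESeq2 (adjusted p = 0.0923). Control and DMBA+TAM were both at or below 3 counts in each library, so no difference between them was detectable at this depth.

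TAM short against control addresses what the shorter-labelled tamoxifen treatment did among the libraries named S. Of the 10 genes 4 rose (Cd4, Cd2, Itgae and Lck) and 0 fell, beside 6.52% of the 16179 tested genes that rose. In 9 of 10 both TAM short libraries lay above both controls, a count whose share over all genes was not computed. The median log2 fold change was 0.90 for the 10 genes and -0.04 for all genes. Without control replicate 1, control replicate 2 or TAM short replicate 2 the count was 2 each time, and Cd4 and Lck were called in all of these. When the control and TAM short libraries were fitted alone, 9 of 10 rose, beside 16.0% of the 13928 genes tested in that fit.

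The partner lists moved in the same direction in part. Of 20 tested T cell signalling genes 6 rose and 0 fell, among them Cd5, a brake on receptor signalling (3.68 ± 0.46, edgeR adjusted p = 0.000768), and Cd6 (2.88 ± 0.32, edgeR adjusted p = 0.000656), both named after their values were seen. Cd5 had 86 and 104 counts in TAM short and 1 to 9 in the other 8 libraries. In the same list Fyn (0.73 ± 0.20, edgeR adjusted p = 0.0349) and Lcp2 (1.31 ± 0.30, edgeR adjusted p = 0.0181) rose, whereas Vav1 (0.93 ± 0.31, edgeR adjusted p = 0.0771) and Fyb (0.41 ± 0.18, edgeR adjusted p = 0.173) did not pass. Of 4 receptor chain genes 2 rose, Trac (1.68 ± 0.34, edgeR adjusted p = 0.0101) and Trbc1 (1.59 ± 0.31, edgeR adjusted p = 0.00814). Trdc, the constant region of the delta chain of gamma-delta T cells, had 15 and 18 counts in control and 2 and 5 in TAM short (log2 fold change -2.16 ± 0.64, edgeR adjusted p = 0.05, just above the threshold).

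Among the genes of T cell subsets Ifng, a cytokine of activated T cells and NK cells, rose; it was named after its values were seen and had 23 and 27 counts in TAM short and 0 to 3 in the other libraries. The list also includes Bcl11b (0.09 ± 0.18, edgeR adjusted p = 0.801), Zbtb7b (0.23 ± 0.13, edgeR adjusted p = 0.29) and Ikzf2 (-0.15 ± 0.68, edgeR adjusted p = 0.919). Foxp3, which marks regulatory T cells, had 0 to 3 counts in every library and was not tested. Of 12 genes of homing and retention 2 rose, Itgb7, the partner chain of Itgae (0.95 ± 0.23, edgeR adjusted p = 0.0219), and Cxcr6 (1.48 ± 0.32, edgeR adjusted p = 0.0138).

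Other cell types moved with this comparison. Of 8 genes shared by white blood cells 3 rose, including Ptprc (CD45), from 17.6 and 38.1 normalized CPM in control to 72.2 and 77.2 in TAM short (log2 fold change 1.43 ± 0.37, edgeR adjusted p = 0.0319). The list summed to 101.8 and 174.3 in control and to 311.4 and 354.1 in TAM short. Of 10 macrophage genes 5 rose, with sums of 227.3 and 284 against 428.4 and 390.7. Of 8 B cell genes 0 were called (edgeR adjusted p = 0.206 to 0.504), with sums of 7.58 and 49.14 in control and 95.92 and 95.27 in TAM short. Genes of the gut segment moved too. Of 10 small intestine genes 6 fell and 1 rose, with sums of 30590 and 32120 in control and 20970 and 18870 in TAM short, and 0 of 7 colon genes were called. The gene that rose was Fabp6, an ileal bile acid binding protein, at 1.53 ± 1.83 normalized CPM in control and 8410 ± 791 in TAM short. Lct (lactase), named after its values were seen, fell from 1420 ± 195 to 1.97 ± 1.53 (SD, n = 2). Of 6 fibroblast genes 3 fell, with sums of 1254 and 1088 against 740 and 616.2. The part of these cells and of the segment in the result was not tested. As a share of Ptprc within a library, the summed normalized CPM of the 3 CD3 genes was 117% and 70.3% in control, 48.8% and 46.9% in TAM short, 49.8% and 25.5% in TAM long, 48.6% and 28.7% in DMBA, and 0% in DMBA+TAM. This share is not corrected for gene length and is read only between libraries, and by it control, not TAM short, was highest.

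**Figure D3:**
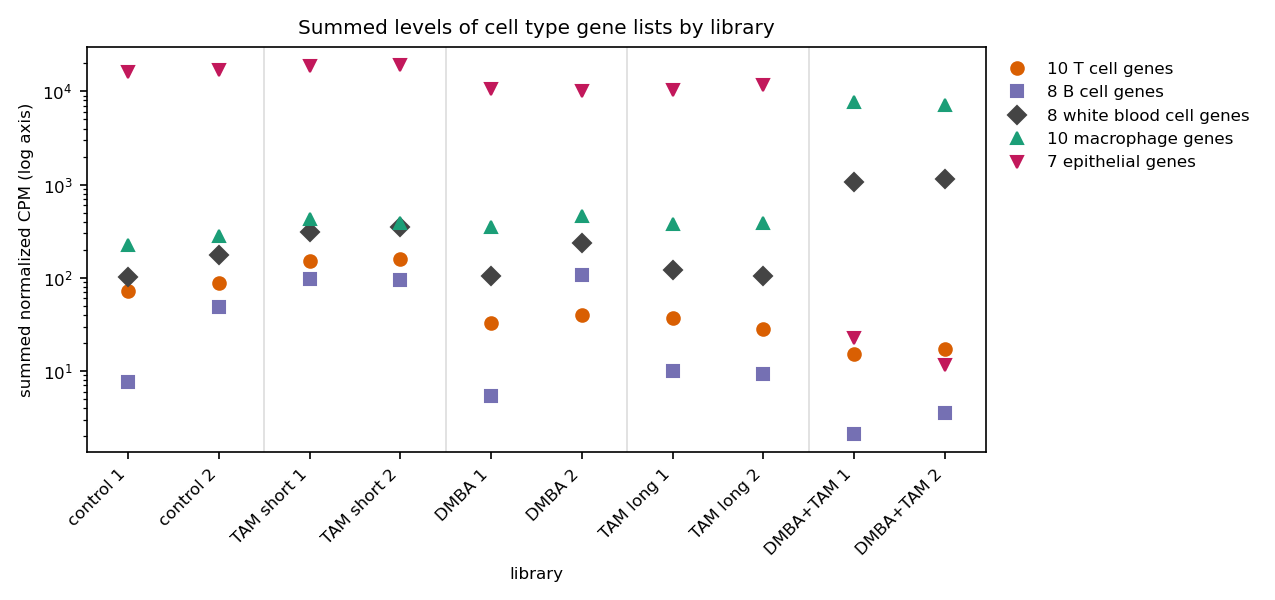
Summed normalized CPM (y axis, log scale) of the 10 T cell genes and of lists of 8 B cell, 8 white blood cell, 10 macrophage and 7 epithelial genes in each of the 10 libraries (x axis). In DMBA+TAM the macrophage sum is 7665 and 7235 and the epithelial sum 22.7 and 11.45, while the B cell sum differs between the 2 libraries of control (7.58 and 49.14) and of DMBA (5.36 and 107.6).

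DMBA against control compares the carcinogen alone with saline, and it also compares libraries named L with libraries named S, so these 2 differences cannot be told apart. Of the 10 genes 5 fell (Cd3e, Cd3g, Cd8a, Itgae and Zap70), beside 23.3% of all tested genes, and 1 rose (Cd2), beside 24.5%. The median was -1.13 for the 10 genes and 0.07 for all genes. Without control replicate 2 only 3 of the 6 calls were made. Most genes of the T cell partner lists were not called. Of 20 tested T cell signalling genes 2 fell and 0 rose, with a median of -0.04, and of 12 genes of homing and retention 2 fell and 0 rose. The median was 0.17 for the T cell subset genes, of which Bcl11b, a transcription factor of T cells, fell (-1.14 ± 0.19, edgeR adjusted p = 0.000876). Of 4 receptor chain genes 2 fell, Trdc (-2.64 ± 0.65, edgeR adjusted p = 0.00794) and Trac (-1.14 ± 0.39, edgeR adjusted p = 0.036). Ptprc did not differ detectably (-0.08 ± 0.38, edgeR adjusted p = 0.885), with 16.3 and 36.7 normalized CPM in DMBA.

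On the side of the epithelium, 6 of 9 tested partner genes fell in DMBA. Ccl25, the chemokine that draws T cells to the small intestine, was at 798 ± 49.1 normalized CPM in control and 3.32 ± 1.36 in DMBA (SD, n = 2, log2 fold change -7.88 ± 0.34, edgeR adjusted p = 3.69e-07), and its receptor Ccr9 fell by 3.04 ± 0.41 on the log2 scale (edgeR adjusted p = 0.000274). Btnl1 and Btnl4, butyrophilin-like genes of gut epithelium, changed by -1.73 ± 0.29 and -1.34 ± 0.14 (edgeR adjusted p = 0.00136 and 0.000105), whereas Cdh1, which encodes E-cadherin, did not pass (-0.03 ± 0.15, edgeR adjusted p = 0.883). In the same comparison 9 of 10 small intestine genes fell, among them Fabp2, Apob and Sis but not Fabp6 (-0.51 ± 0.81, edgeR adjusted p = 0.633), with sums of 30590 and 32120 in control against 716.6 and 309 in DMBA, and 7 of 7 colon genes rose, with sums of 504.8 and 528.6 against 6981 and 2785. The 8 B cell genes summed to 5.36 and 107.6 in the DMBA libraries. Markers of other cells differed as well. Of 6 fibroblast genes 5 rose, with sums of 1254 and 1088 in control and 2009 and 1810 in DMBA, and of 10 macrophage genes 4 rose, with sums of 227.3 and 284 against 347.7 and 458.7. Of 7 epithelial genes 4 fell and 2 rose, with sums of 16190 and 17090 against 10530 and 10100. The part of these differences in the T cell result was not tested.

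**Figure D4:**
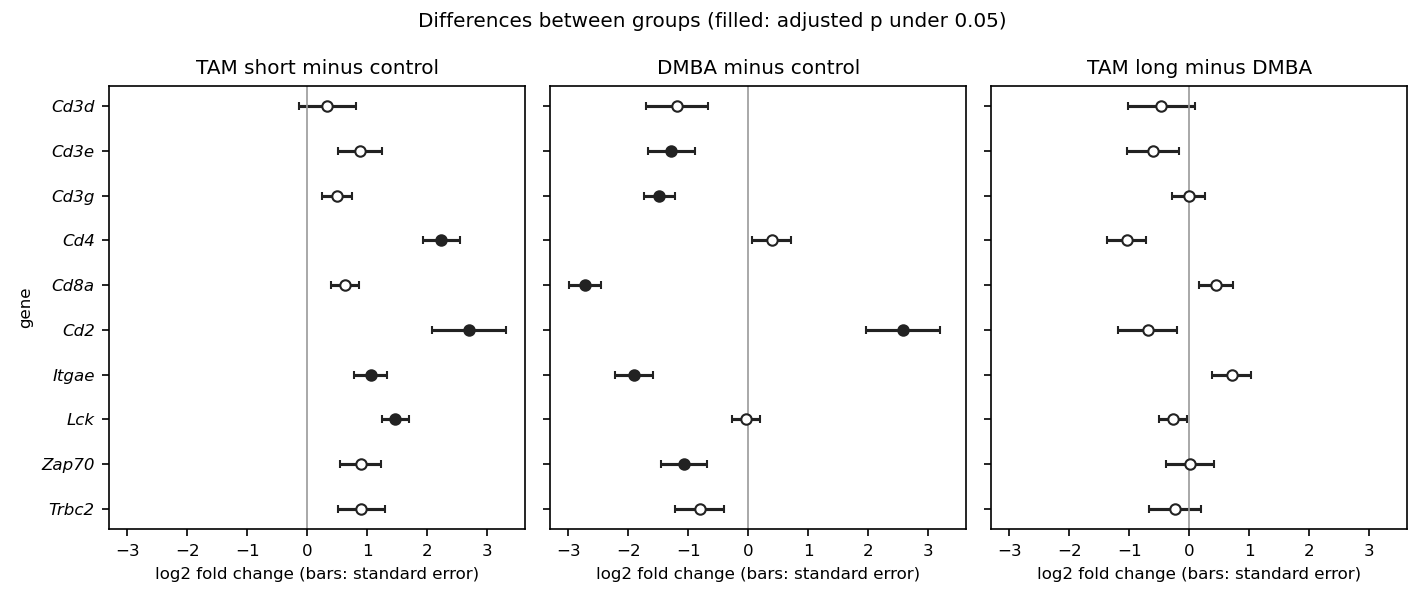
Log2 fold changes with standard errors (x axis, same scale in each panel) of the 10 T cell genes (y axis) for TAM short minus control, DMBA minus control and TAM long minus DMBA, from the edgeR fit of all 10 libraries. Filled points passed an adjusted p of 0.05, which 4, 6 and 0 of the 10 genes did.

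TAM long against DMBA compares the libraries named L with each other. Of the 10 genes 0 were called by edgeR and 0 by DESeq2, beside 2.70% of all tested genes in either direction, and 1 gene, Cd4, had an unadjusted p under 0.05 (log2 fold change -1.04 ± 0.33, edgeR adjusted p = 0.124). The median was -0.25 for the 10 genes and 0.00 for all genes. Itgae was higher in both TAM long libraries (0.71 ± 0.33, edgeR adjusted p = 0.266), and the range of the other log2 fold changes was -0.69 for Cd2 to 0.45 for Cd8a.

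TAM long against control gave 6 lower genes (Cd3d, Cd3e, Cd3g, Cd8a, Itgae and Zap70), beside 22.8% of all tested genes, and 1 higher (Cd2), beside 23.2%. The medians were -1.12 for the 10 genes and 0.05 for all genes. It compares libraries named L and S, as DMBA against control did, with which it shares the control libraries. The count was 4 without control replicate 1, 2 without control replicate 2, 3 without TAM long replicate 2 and 4 under scaling by library size only, and the calls of Cd3g and Cd8a held in all of these. Here too 9 of 10 small intestine genes were lower, and 6 of 7 colon genes higher, with colon sums of 12350 and 4830 in TAM long. The summed B cell genes were at 10.09 and 9.24. Of 10 macrophage genes 5 were higher (sums of 376 and 382.9 in TAM long), of 6 fibroblast genes 3 were higher and 1 lower (1159 and 1481), and of 7 epithelial genes 4 were lower and 2 higher (10480 and 11640). The part of these differences was not tested.

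TAM long against TAM short, the labelled long and short tamoxifen treatments, had 9 of the 10 genes lower in TAM long, beside 20.3% of all tested genes. The groups overlapped for none of the 10, a count whose share over all genes was not computed. The median was -1.99 for the 10 genes and 0.05 for all genes. Differences ran from -1.77 ± 0.23 for Lck (edgeR adjusted p = 0.000265) to -2.89 ± 0.25 for Cd8a (edgeR adjusted p = 2.97e-05), and Cd2 did not pass (-0.80 ± 0.50, edgeR adjusted p = 0.226). The call of Cd3d (-2.0 ± 0.53, edgeR adjusted p = 0.0152) was lost without TAM short replicate 1, TAM short replicate 2 or TAM long replicate 2 (adjusted p = 0.0847, 0.0575 and 0.103). Of 20 signalling genes 13 were lower and 0 higher, and of 4 receptor chains 3 were lower. All 8 white blood cell genes fell with them, from sums of 311.4 and 354.1 to 121.9 and 103.3. So did 9 of 10 small intestine genes, while 6 of 7 colon genes were higher. All 6 fibroblast genes were higher, with sums of 740 and 616.2 in TAM short and 1159 and 1481 in TAM long. Of 7 epithelial genes 4 were lower and 1 higher, and of 10 macrophage genes 2 were lower and 1 higher. Of 8 B cell genes 3 were lower, with sums of 95.92 and 95.27 against 10.09 and 9.24. The part of these was not tested, and the letters S and L separate the same libraries.

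DMBA+TAM against the other groups addresses what both agents gave together. Against control 8 genes were lower, beside 35.3% of all tested genes, and Cd4 was higher, beside 29.0%. Against DMBA 7 were lower (all but Cd4, Itgae and Zap70), beside 29.9%, and Cd4 was higher, beside 25.2%. The same 7 were lower against TAM long, beside 29.9%, with Cd4 higher, beside 25.3%. For Cd2 and Cd3d among them, the TAM long mean lay below the DMBA+TAM floor of 3 counts a library, 1.45 normalized CPM on average, so no fold could be given. Against TAM short 9 were lower, all but Cd4, beside 33.8%. The 4 comparisons share the DMBA+TAM libraries. With genes at 0 counts set at their bound, or at 0 where no fold could be given, the medians over the 10 genes were -2.61, -1.25, -1.01 and -3.35, against fitted medians of -3.85, -2.88, -2.64 and -4.80. The medians of all genes were between -0.17 and -0.14.

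The calls against control and against TAM short numbered 9 whichever of the libraries was left out. Against DMBA, the count of 8 became 5 without DMBA+TAM replicate 1 and 4 without DMBA+TAM replicate 2, and against TAM long it became 4 without either. Cd8a against DMBA (-1.58 ± 0.56, edgeR adjusted p = 0.036) was lost without DMBA replicate 1 or either DMBA+TAM library (adjusted p = 0.178, 0.2 and 0.0561), under DESeq2 (adjusted p = 0.101) and under scaling by library size only (adjusted p = 0.0797). Zap70 missed the threshold against DMBA (-1.93 ± 0.76, edgeR adjusted p = 0.0537) and against TAM long (-1.95 ± 0.76, edgeR adjusted p = 0.0509). Both passed with no filter on low counts (adjusted p = 0.0467 and 0.0434), and the latter without TAM long replicate 2 (-2.40, adjusted p = 0.0145). Trbc2 had 4 counts in DMBA+TAM replicate 1 and 0 in replicate 2, and without replicate 2 its calls against DMBA and TAM long were lost (adjusted p = 0.149 and 0.224), as they were without DMBA replicate 2 (adjusted p = 0.0545) and TAM long replicate 1 (adjusted p = 0.0977). Against TAM long, Cd8a was also lost without DMBA+TAM replicate 1 (adjusted p = 0.0697), and Cd2 without TAM long replicate 2 or either DMBA+TAM library (adjusted p = 0.0503 to 0.0886).

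White blood cell genes as a whole moved the opposite way there. All 8 rose over control, and Ptprc was at 203 and 190 normalized CPM. The list counts of this paragraph stand beside 29.0% of all tested genes that were higher than in control and 35.3% that were lower. Of the signalling genes 4 were higher against control, Fyn, Vav1, Fyb and Lcp2, which other white blood cells use too, with Fyn going from 9 ± 1.06 normalized CPM in control to 85.2 ± 10.2 (SD, n = 2). In that list 6 were lower. Lat, an adaptor downstream of Zap70, fell by 2.85 ± 0.85 on the log2 scale (edgeR adjusted p = 0.0141). Trac, with 4 and 6 counts in DMBA+TAM, was at 2.38 ± 0.38 normalized CPM there and 2.35 ± 0.77 in control (log2 fold change 0.03 ± 0.46, edgeR adjusted p = 0.961), so it did not go with Trbc2 and the CD3 genes. Against control, 6 of 12 genes of homing and retention were higher and 2 lower, with a median of 1.45. Of 11 tested T cell subset genes 2 were higher and 4 lower. Among 9 tested partner genes of the epithelium, 1 was higher and 8 were lower. The B cell genes summed to 2.11 and 3.53, with 4 of 8 genes at 0 in both libraries. NK and innate lymphoid genes summed to 14.78 and 12.78, against 5.31 and 5.90 in control, and 1 of 3 tested was higher. The part of other cells in these results was not tested.

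The interaction of DMBA and tamoxifen asks whether the difference between DMBA+TAM and DMBA was unlike that between TAM long and control. The control libraries are named S, those of DMBA and TAM long L, and those of DMBA+TAM Lgr5. A difference between S and L libraries thus enters both DMBA and TAM long against control. It cannot be told apart from an interaction of the 2 agents. The interaction term was called for 5 of 10 genes. Cd4 (1.79 ± 0.48, edgeR adjusted p = 0.012) and Itgae (1.49 ± 0.55, edgeR adjusted p = 0.0471) were higher than the sum of the 2 single differences, beside 21.6% of all tested genes. Lck (-2.86 ± 0.55, edgeR adjusted p = 0.00193), Cd3g and Cd2 were lower, beside 26.5%. Cd3g and Cd2 had 0 counts in DMBA+TAM, so the sizes of their fitted values are not measured. The Cd4 call was lost without control replicate 2 (adjusted p = 0.0524). The Itgae call was lost in 5 of the 8 fits that left out a library (without control replicate 2, DMBA replicate 2, either TAM long library or DMBA+TAM replicate 2, adjusted p = 0.0874 to 0.418), under scaling by library size only (adjusted p = 0.0883) and with only the groups compared (adjusted p = 0.0728). With TAM short in place of TAM long, 8 genes were called, Cd8a turned from 0.68 to -2.21 (adjusted p = 0.0133), and Cd4 and Itgae turned to -1.09 and -0.75 (adjusted p = 0.078 and 0.277).

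A further comparison, chosen after the data were seen, set the tamoxifen difference among the S libraries (TAM short minus control) against that among the L libraries (TAM long minus DMBA). For Cd4 they were 2.24 and -1.04, and the difference of 3.28 ± 0.45 passed (edgeR adjusted p = 0.0046). For Lck they were 1.47 and -0.27, a difference of 1.73 ± 0.33 (edgeR adjusted p = 0.0168), and for Cd2 2.70 and -0.69, a difference of 3.39 ± 0.80 (edgeR adjusted p = 0.0446). These 3 genes were called, beside 2.78% of all tested genes. Leaving out either control library, either TAM short library or TAM long replicate 2 left 1 call, Cd4. Short or long treatment, DMBA and the S or L letter all change between the 2 sides, so they cannot be told apart.

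Levels were compared between genes on the FPKM scale of the deposited table. In control Cd3g (18.3 ± 0.62, SD, n = 2) and Trbc2 (12.8 ± 0.77) were highest and Cd2 (0.32 ± 0.01) lowest. The same pair led in DMBA (8.09 ± 1.15 and 8.87 ± 3.97), in TAM short (27.6 ± 1.18 and 25.4 ± 0.41) and in TAM long (8.14 ± 2.43 and 7.69 ± 1.85), and in DMBA and TAM long the 2 genes did not differ beyond their spread. In DMBA+TAM Cd4 was highest, at 8.04 ± 0.13. The deposited FPKM use a shorter gene length than the listed one for 7 of the 10 genes, 576 instead of 1023 bases for Cd3g and 1313 instead of 3108 for Cd4. With the listed lengths Cd3g is 10.3 in control and 15.5 in TAM short, below Trbc2, and Cd4 in DMBA+TAM is 3.40 and still the highest.

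Across the 10 libraries the genes were compared with the mean of their own standardised log2 levels, as a description, since the libraries share 5 groups. Pearson's r was 0.98 for Cd3e, 0.977 for Zap70, 0.958 for Lck, 0.951 for Cd3g and 0.949 for Cd3d, 0.934 for Cd8a, 0.931 for Trbc2 and 0.845 for Itgae, but 0.607 for Cd2 and 0.284 for Cd4. Cd3d, Cd3e and Cd3g had r of 0.969 to 0.974 with each other. Of 13014 other genes, those most like the mean were Slc5a6, a vitamin transporter (r = 0.989), Nuak2 (0.983), Ywhah (0.983), Hsd17b7 (0.981), Arpin (0.980), Dxo (0.979), Ergic3 (0.978) and Smarcd2 (0.978). None of these 8 belongs to the T cell lists. Slc5a6 was at 26.7 normalized CPM in control, 67.3 in TAM short, 18.2 in TAM long, 22.5 in DMBA and 8.37 in DMBA+TAM, the group order of Lck.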

How the data were processed

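RNA-seq of 10 libraries was analysed from a single table of the whole series. According to the methods of the study, the authors mapped reads with TopHat v2.0.12, counted reads per gene with HTSeq v0.6.1 and computed FPKM. The submitters' processing notes name GRCm38.p6. The deposited counts are whole reads per gene, not normalized, and the deposited FPKM divide them by gene length and library total. The authors' fold changes and p-values of their own comparisons stand in the same table and were not used here. Of 47074 lines, 5 are parts of split lines, leaving 47069 genes, 26392 of them with a count.

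The tool for the counts was edgeR 4.0.16 (R 4.3.3), with its filterByExpr filter, TMM scaling, 1 quasi-likelihood model of 5 group means and Benjamini-Hochberg adjustment over all 16179 tested genes with a threshold of 0.05. With 2 libraries against 2, an exact permutation test cannot go below p = 0.333 and was not used. Folds against 0 counts were computed against 3 counts per library, and intervals are exact 95% intervals that cover counting error only. The floors and intervals rest on library totals of 1592366 to 10923673 counts. The alternatives were DESeq2 1.42.0, library size only, no filter, a replicate block, fits of only the 2 groups in question, a minimum size of 1 on the log2 scale for a call, leaving out each library, TAM short in place of TAM long in the interaction, and, added after the data were seen, counts thinned to 1592366 and listed gene lengths for FPKM. The edgeR fit was also run on counts simulated from its own means and spread. The outcome of that run is not given, and no result here rests on it.

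The 10 genes and the 14 gene lists were chosen with earlier results of these data known. Named in the text are the 10 genes, the up to 4 most abundant genes of each list used, Ptprc, Cd8b1, Trdc, Foxp3, and the 8 genes with the highest Pearson r to the mean standardised log2(normalized CPM + 1) of the 10 (genes with a mean count of 20 or more). Other named genes were chosen after their values were seen. Of the list genes, 4 (Prac1, Trgc1, Trgc2 and Trgc4) were not used here. All 10 genes matched GENCODE M21. A gene of the T cell subset list is not reported here.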

Additional observations from a re-analysis of the deposited data

Results flagged for a closer look

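The difference of DMBA+TAM from DMBA was unlike that of TAM long from control for 5 of the 10 T cell genes by the interaction term of the edgeR fit, 2 of them higher, beside 21.6% of all tested genes, and 3 lower, beside 26.5%, so the share called is near that of all genes. On the log2 scale the interaction was 1.79 for Cd4 and 1.49 for Itgae, above the sum of the single differences. It was -2.86 for Lck, -6.69 for Cd3g and -9.02 for Cd2, of which the last 2 rest on counts of 0 in DMBA+TAM and are not measured sizes. Both single differences also compare libraries named L with libraries named S, which cannot be told apart from an interaction.

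The tamoxifen difference was unlike in the libraries named S and L for 3 genes by a contrast chosen after the data were seen, with log2 values of 3.28 for Cd4, 3.39 for Cd2 and 1.73 for Lck, beside 2.78% of all tested genes called higher. Without either control library, either TAM short library or TAM long replicate 2, the call left was that of Cd4. With 2 libraries a group, which library of a pair stands apart cannot be told.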

How the results depend on the processing

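Scaling by TMM or by library size only moved the median of all genes by up to 0.48 on the log2 scale (DMBA+TAM against control), and results are given relative to TMM. The depth of DMBA+TAM limits what can be seen of genes at or below 3 counts. The calls of Cd4 and Lck in TAM short against control and of Cd8a in DMBA and TAM long against control held under every alternative run, and the counts against control and TAM short of DMBA+TAM were 9 in each fit that left out a library.

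The number of the 10 genes called, when a library was left out, ran from 3 to 6 for DMBA against control (6 with all libraries), 2 to 3 for TAM short against control (4), 2 to 5 for TAM long against control (7), 4 to 6 for DMBA+TAM against DMBA (8), 4 to 8 against TAM long (8), 8 to 9 for TAM long against TAM short (9), 3 to 6 for the interaction (5) and 1 to 3 for the S and L contrast (3). It was 0 throughout for TAM long against DMBA. With counts thinned to 1592366, which left 7 of the 10 genes to test, 1 was called for DMBA, 2 for TAM short and 2 for TAM long against control, 4 and 5 for DMBA+TAM against DMBA and TAM long, 2 for the interaction and 0 for the S and L contrast. Thinning lost the calls against control of Cd3e and Cd3g in DMBA (adjusted p = 0.0903 and 0.0718), of Cd3e in TAM long (adjusted p = 0.0649) and of Itgae in all 4 groups (adjusted p = 0.0817 to 0.315). With only the groups compared, 9 were called for TAM short against control, and 4 each for DMBA+TAM against DMBA and TAM long, where the filter then left 8 and 6 of the 10 genes to test. Library size only gave 4 for TAM long against control, TAM short in the interaction gave 8, and no filter gave 5 for the S and L contrast.

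The direction turned only for values that had not been called, or, with TAM short in the interaction, for Cd4 (-1.09), Cd8a (-2.21) and Itgae (-0.75). Lck in DMBA against control turned to 0.26 by library size and 0.35 when thinned, and in TAM long against control to 0.0138 and 0.20. Cd4 in TAM long against control was 0.47 when thinned, Itgae in DMBA+TAM against DMBA -0.11. In TAM long against DMBA, Cd3g turned to 0.0123 by library size and Trbc2 to 0.12 when thinned. With a library left out, the log2 differences that turned ran from -0.25 to 0.13 for Lck in DMBA against control, from -0.40 to 0.86 for Itgae in DMBA+TAM against DMBA and from -1.11 to 0.0063 against TAM long. In TAM long against DMBA they ran from -1.29 to 0.17 for Cd3d, -0.34 to 0.25 for Cd3g, -0.66 to 0.46 for Zap70 and -0.71 to 0.43 for Trbc2. For Cd8a they ran from -0.14 to 1.16 in the interaction and from -0.26 to 0.48 in the S and L contrast, and for Itgae there from -0.21 to 0.71. The cause was not tested.

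Replicate numbers did not pair the libraries across all groups: the correlation of replicate differences between groups ran from -0.06 to 0.32 and passed 0.1 for 1 of 10 pairs of groups. That pair was DMBA and TAM long (0.32), so a shared replicate difference may be present in TAM long against DMBA. With the replicate block, Zap70 in TAM long against DMBA was -0.0018, and the calls of Cd8a in DMBA+TAM against DMBA (adjusted p = 0.0518), Cd3d in DMBA+TAM against TAM long (adjusted p = 0.0537) and Itgae in the interaction (adjusted p = 0.0624) were lost. The number of all genes called in TAM long against DMBA was 437, and 870 by DESeq2, 1615 with no filter and 29 with only the groups compared, and in TAM short against control it was 2317 and 4317 with only the groups compared.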
